A study of Arabidopsis thaliana with 7 samples.

Results

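The sites described here are the 356 binding sites of HY5-YFP that leaned most to red light, out of 3557 sites called in both lights in every library and 10233 sites called in any. HY5-YFP binding was mapped by ChIP-seq, in which fixed chromatin is pulled down with the bound protein and its DNA is sequenced, and each of the 6 libraries has its own list of peaks. Peaks that overlapped across lists were merged to sites, and the sites with a peak in all 6 lists are called shared sites. At each shared site the tags of the highest peak per library, scaled by the authors to 10 M tags (1 M is 1e6), were put on a log2(tags + 1) scale and centred by subtracting the library's median over the shared sites. The 10% of shared sites with the lowest mean of the blue light libraries minus mean of the red light libraries are called red-leaning sites. The same tag numbers therefore chose the sites, and every difference in tags between the lights given below is a description with no test.

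Blue light and red light were compared with 3 biological replicates each. The blue light plants spent 52 hours in blue light at 15 µmol per square metre and second, after entrainment to light-dark cycles, and the red light plants spent the same time in red light at the same fluence rate. All plants in both groups were Arabidopsis of the Wassilevskija (Ws) accession, were 10 days old, carried the T-DNA insertion hy5-ks50 in HY5 and expressed the HY5-YFP fusion. Whole plants were fixed, so the tags are a sum over all cell types, and more bound cells and more binding per cell cannot be told apart. Plants without the fusion were not analysed here, and the labels do not name the promoter that drives the fusion. Chromatin was pulled down with GFP-Trap beads, which hold an antibody fragment against green fluorescent protein and its yellow variant. The mock, a pull-down with beads lacking that antibody, came from the pooled blue light samples alone.

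HY5, a transcription factor of the bZIP family, drives seedling development in light. It binds promoter elements with an ACGT core, among them the G-box, and acts on genes of pigment synthesis, photosynthesis, hormone response and the circadian clock. In darkness it is marked for degradation by the E3 ligase COP1 with its SPA partners, and phytochromes and cryptochromes, the receptors of red and blue light, inhibit that ligase in light.

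The libraries held 7.99 to 11.7 M tags in blue light and 10.6 to 11.9 M in red light. Peaks took up 24.8% to 25.7% of the tags in the blue light libraries and 12.7% to 15.9% in the red light libraries. Shared sites had median tags per 10 M of 362.1, 352.1 and 362.9 in blue light replicates 1, 2 and 3, against 318.7, 220.1 and 219.6 in red light replicates 1, 2 and 3. Red light replicate 1 stood apart: its peaks were counted over windows of 549 bp, against 340 to 348 bp in the blue light libraries and 306 and 312 bp in the other red light ones. The fragment length given for it was 548 bp, against 188 to 226 bp for the other 5 libraries. The uncentred tags of red light replicate 1 are therefore not on the same footing as those of the others. The difference of the whole set and of some sites is also given without it, and other values are given with it alone. SDs over tags cover these libraries only, and PCR copies are not independent molecules.

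The red-leaning sites differed by -1.07 to -0.26 on the centred log2 scale, blue minus red, with a median of -0.34. All shared sites had a median difference of -0.04 and an SD of 0.21. Of the red-leaning sites 51 lay below -0.5, 16 below -0.7 and 8 below -0.9. The sites just inside the limit lay at ERD5, AT2G19790 and CFIM-25, with differences of -0.2649, -0.2647 and -0.2646, and those just outside lay at ELF8, AT5G07940 and ICK1, with -0.2645, -0.2641 and -0.2640. No gap separates the red-leaning sites from the rest.

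Leaning to red light is relative to the other shared sites, since the library medians over shared sites were on average higher by 0.53 (log2) in blue light than in red light. Without centring, the median difference of the red-leaning sites was 0.19 in favour of blue light, against 0.50 at the other 3201 shared sites. With red light replicate 1 left out, these uncentred medians were 0.36 and 0.68, and the library medians were on average higher by 0.70 in blue light. In uncentred tags, 38 red-leaning sites and 0 of the other shared sites had a red light mean above the blue light mean (log2 scale). When red light replicate 1 was left out, 10 red-leaning sites and 0 of the others did. Every red light library lay above every blue light library in uncentred tags at 6 shared sites, 0.169% of the 3557, and all 6 belong to the chosen set, as the choice itself favours. In the other direction, every blue light library lay above every red light library at 59.4% of the shared sites, and among the red-leaning ones at 4: HMGB4, TPR3, AT3G26539 and AT4G00810, which are named here after their values were seen. On the centred scale, 327 red-leaning sites had all red light values above all blue light values, where 21.3% of all shared sites did. Nothing is read from these counts, because the same tags chose the sites.

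The lowest difference of all lay between DAA1, which encodes an ATPase of the AAA family, and AT1G64130, at positions 23801850 to 23802398 of chromosome 1 (TAIR10). It had 815.8, 958.3 and 795.8 tags per 10 M in blue light, against 1828.6, 1026.0 and 1021.3 in red light. All red light libraries lay above all blue light ones, and red light replicate 1 was the highest by far. On the centred log2 scale the site averaged 1.25 ± 0.17 in blue light and 2.31 ± 0.17 in red light (SD, n = 3 each), a difference of -1.07. Among the shared sites it took place 302 by tags in blue light and place 48 in red light.

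The site beside DRP5A, a dynamin-related protein of cell division, lay on chromosome 1 at positions 19798848 to 19799396. Its tags per 10 M were 790.1, 748.6 and 764.5 in blue light, against 1583.2, 849.3 and 914.5 in red light. The groups did not overlap, and the difference was -1.01. AT2G06025 held its site inside the gene and away from the gene's ends, with 655.7, 698.2 and 638.1 tags in blue light, against 1244.8, 799.9 and 757.2 in red light. The groups were again apart, with a difference of -0.98. The site inside AT4G03965 had 535.0, 527.1 and 484.2 tags in blue light, against 1045.5, 547.7 and 572.1 in red light. Here the lowest red light value exceeded the highest blue light value by little, and the difference was -0.95.

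The site between AT1G01335 and CNGC10, a gene of the cyclic nucleotide-gated channel family, was the tallest of the lowest 15 after HY5, with 2023.5, 2022.3 and 1904.4 tags per 10 M in blue light, against 3695.8, 2215.0 and 2165.5 in red light. It was place 13 among shared sites in blue light and place 2 in red light. WRKY41, a transcription factor gene of the WRKY family, shared its site with 3xHMG-box1, since the peak overlaps both genes. It had 770.4, 841.6 and 780.8 tags in blue light, against 1526.8, 923.8 and 834.6 in red light. One red light value lay below the highest blue light value, so the groups overlapped before centring.

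The other sites given from the lowest 15 had differences of -0.96 to -0.73. They lay at AT1G27180, AT4G22250, AT1G53970, AT2G33180, AT4G29680, TAP46, which encodes a regulator of protein phosphatases of type 2A, and PHYB. AT1G53970 and AT1G27180 had the fewest tags of these, with a mean of 71.6 ± 2.31 and 84.5 ± 14.9 in blue light, against 85.1 ± 12.5 and 115.2 ± 26.2 in red light (SD, n = 3 each). At such heights the counting error of the difference alone was 0.13 at AT1G53970 and 0.12 at AT1G27180 (log2), while at the HY5 site it was 0.011. With a lowess trend over height removed, the difference at AT1G53970 was -0.46, against -0.76 without that step. Across the lowest 15, red light replicate 1 exceeded the mean of the other red light replicates by a median of 1.69-fold, with a range of 1.22 to 1.98, against a median of 1.45 at the shared sites that are not red-leaning. How far the wider window or the longer fragment length contributes to single values was not tested.

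**Figure D1:**
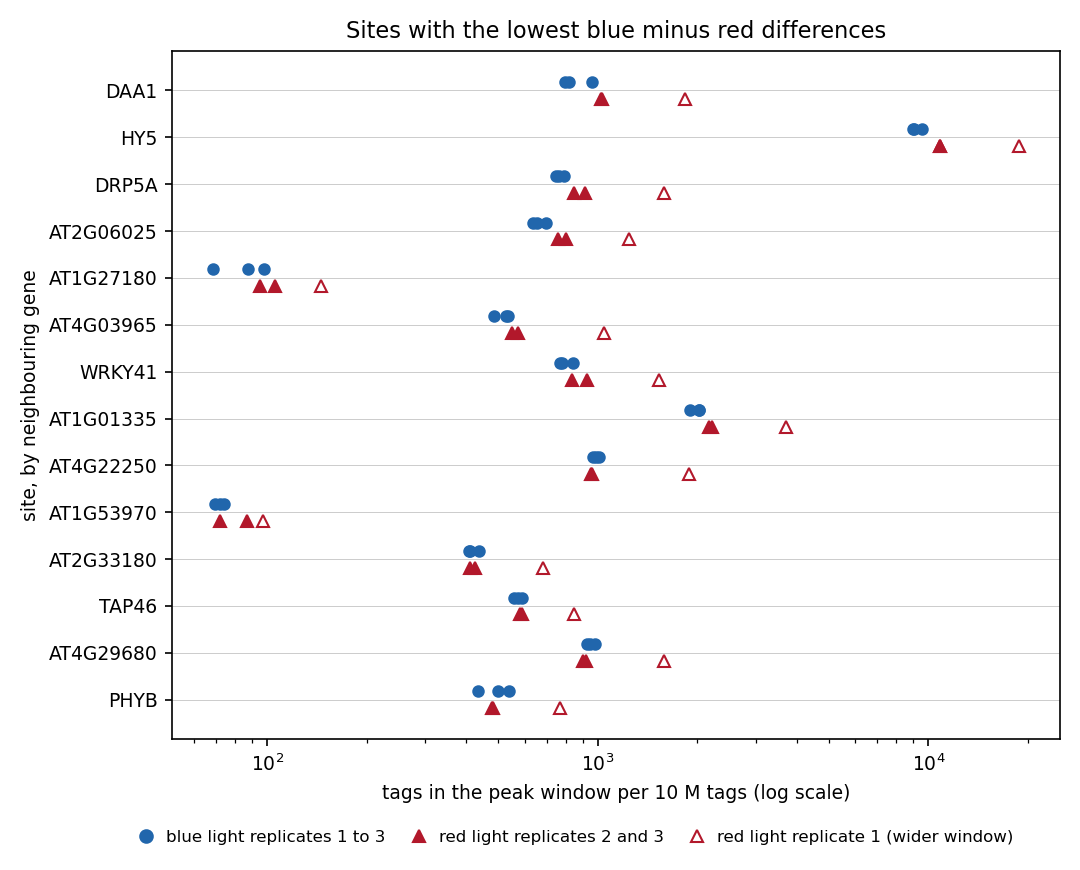
Tags in the peak window per 10 M tags (log scale) at red-leaning sites with the lowest blue minus red differences, one row per site. Circles are the 3 blue light libraries, filled triangles red light replicates 2 and 3, and open triangles red light replicate 1. Open triangles lie to the right in every row, and at HY5 the filled triangles at 10822.0 and 10862.8 also lie right of all circles.

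Among light signalling genes, HY5 itself carries the tallest of all shared sites, at positions 3594787 to 3595335 of chromosome 5, inside HY5 at its edge, with OCP3, a homeodomain transcription factor gene, as neighbour. It had 8966.4, 9567.7 and 9016.4 tags per 10 M in blue light, against 18857.8, 10822.0 and 10862.8 in red light. All red light libraries lay above all blue light ones, and on the centred scale the site averaged 4.67 ± 0.08 in blue light and 5.71 ± 0.15 in red light (SD, n = 3 each), a difference of -1.03. With a lowess trend over height removed from the differences, the value at HY5 was -0.37, and the site kept its place in the lowest 10%. HY5 had a mean of 11349 tags, where EDD1, the next tallest red-leaning site, had 2713 and the sites outside the set reached 3012. The trend at HY5 thus has no other site of like height under it, and the value does not show how much of the difference goes with height. The authors' fold over the mock there was 8.88, 9.46 and 9.12 in blue light, against 15.90, 11.42 and 11.38 in red light. The mock held 691, 692 and 676 tags in the windows of the blue light libraries and 812, 648 and 653 in those of the red light libraries, where the median red-leaning site held 21 to 32. The fusion gene is a further copy of HY5 sequence in these plants, and tags from it and from the native gene cannot be told apart in the lists. Its part in the value was not tested.

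PHYB encodes the main photoreceptor of red light. A site between AT2G18780 and PHYB, at positions 8138282 to 8138830 of chromosome 2, is named here after PHYB. The nearest gene end is that of AT2G18780, so the site cannot be given to PHYB alone. It had 499.9, 537.0 and 432.9 tags per 10 M in blue light, against 770.0, 476.6 and 482.1 in red light. Before centring, the red light values of replicates 2 and 3 fell within the blue light range. After centring, the site averaged 0.44 ± 0.18 in blue light and 1.17 ± 0.09 in red light (SD, n = 3 each), with a difference of -0.73 that was -0.66 without red light replicate 1. Among the photoreceptor genes of the list, 4 of 10 had a shared site and PHYB was the red-leaning one. PHYC, another phytochrome gene, had a difference of -0.14.

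SPA1, a partner of COP1, had its site between SPA1 and AT2G46360 on chromosome 2. It held 1563.0, 1552.6 and 1423.9 tags per 10 M in blue light, against 1785.4, 1027.8 and 1208.9 in red light. Red light replicate 1 was above the blue light values and the other red light replicates below them, and the difference was -0.31. Without red light replicate 1 it was -0.25, outside the lowest 10%, and the site also left that range without red light replicate 3 and with the lowess trend over height removed, where its difference was -0.14. Of the 12 genes of the photomorphogenesis list with a shared site, HY5 and SPA1 were the red-leaning ones, and the list's median difference was 0.10. COP1, SPA3 and SPA4 had differences of 0.45, 0.18 and 0.67, on the side of blue light, and HYH, the closest relative of HY5, had -0.10.

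RUP1, LRB1, UVR3 and DDB2 also had red-leaning sites and were picked after their values were seen, so they say nothing of light or ultraviolet response genes as a group. RUP1, a repressor of the ultraviolet receptor UVR8, belongs to the photomorphogenesis list. Its site lay inside the gene, deeper than the window used for gene lists, and is not in that list's count. The RUP1 site had 453.7, 441.1 and 420.4 tags per 10 M in blue light, against 576.3, 377.0 and 332.3 in red light. LRB1, which takes part in the degradation of phytochrome B, shares its site with GBF3, a bZIP factor of the G-box binding family. That site had 1424.4, 1512.0 and 1387.6 tags in blue light, against 2093.7, 1120.5 and 1096.2 in red light, and a difference of -0.45. At RUP1 and at LRB1 alike, red light replicate 1 was the highest library and the other red light replicates the lowest before centring. UVR3, a photolyase of ultraviolet damage, had a mean of 480.7 ± 5.06 in blue light and 424.4 ± 111 in red light, and DDB2, a recognition factor of damaged DNA, 1891.3 ± 49.7 and 1653.2 ± 514 (SD, n = 3 each). Their centred differences were -0.32 and -0.29. RUP2, the close relative of RUP1, had a shared site with a difference of -0.10, which was not red-leaning.

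Among clock genes, 3 of the 20 with a shared site were red-leaning, and the list's median difference was -0.11. GI, a clock component that also acts in flowering, had its site beside the gene at positions 8060553 to 8061101 of chromosome 1, with 1049.4, 1099.7 and 1081.1 tags per 10 M in blue light, against 1251.4, 862.3 and 916.2 in red light. The blue light values lay between the red light ones. The centred averages were 1.58 ± 0.05 in blue light and 2.00 ± 0.05 in red light (SD, n = 3 each), a difference of -0.42, and -0.41 without red light replicate 1. PRR9, a pseudo-response regulator that represses morning genes, had 654.8, 562.7 and 650.6 tags in blue light, against 621.4, 507.0 and 533.4 in red light, and a difference of -0.36. PRR5, of the same family, had 202.9, 199.8 and 210.2 tags in blue light, against 201.2, 179.4 and 144.7 in red light, and a difference of -0.29, and left the lowest 10% without red light replicate 2, at -0.18. The groups overlapped at PRR9 and PRR5 before centring, and at both the blue light mean was the higher. For the clock genes ELF4 and CCA1 the differences were 0.27 and -0.12, so the clock genes fell on both sides of the median.

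Of the genes for plastids and chlorophyll, 2 of the 9 with a shared site were red-leaning. FC1, which encodes a ferrochelatase of heme synthesis, had 2065.5, 2135.1 and 2082.1 tags per 10 M in blue light, against 3092.2, 1994.9 and 1900.5 in red light, at positions 9094894 to 9095442 of chromosome 5. Its centred difference was -0.64, with averages of 2.54 ± 0.05 in blue light and 3.19 ± 0.08 in red light (SD, n = 3 each), and it was -0.38 with the lowess trend removed. SIG5, a sigma factor of plastid transcription, shares its site with AT5G24130, whose end is nearer. The site had 2128.0, 2074.7 and 2047.0 tags in blue light, against 2227.2, 1562.5 and 1521.1 in red light, and at -0.27 it lay near the limit. It left the lowest 10% when any red light replicate or blue light replicate 3 was left out, with a pseudocount of 10, with an 8-fold bar over the mock and with the lowess trend removed. Its difference was -0.032 with the trend removed. SIG4, another sigma factor gene named after its value was seen, had a difference of -0.35.

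For flavonoid synthesis, MYB12, an activator of flavonol genes, was the 1 red-leaning gene of 10 with a shared site. It had 1227.5, 1120.4 and 1157.4 tags per 10 M in blue light, against 1259.8, 1045.1 and 1001.1 in red light, and a difference of -0.44 that was -0.50 without red light replicate 1. TT7, which encodes flavonoid 3'-hydroxylase, had a red-leaning site inside the gene beyond the window for list genes, with a difference of -0.30. The site at UNE5, the next gene to MYB12 on chromosome 2, was red-leaning too, at -0.27.

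Growth and defence genes followed. IAA29 and IAA19, auxin response repressors, and YUC8, an auxin synthesis enzyme, made 3 of the 9 genes of the elongation list with a shared site. IAA29 had 1089.7, 1019.6 and 1094.8 tags per 10 M in blue light, against 1188.4, 857.9 and 916.2 in red light, and a difference of -0.40. The site of IAA29 lies inside its neighbour AT4G32285, and that of IAA19 inside AT3G15548, so they cannot be given to 1 gene. IAA19 and YUC8 were lower, with blue light means of 252.0 ± 26.0 and 233.0 ± 23.2 and red light means of 216.9 ± 46.8 and 195.4 ± 26.5 (SD, n = 3 each), and differences of -0.30 and -0.27. Both left the lowest 10% without blue light replicate 2 or red light replicate 2, and YUC8 also without red light replicate 3, at -0.17. The 8-fold bar over the mock removed PRR5 and IAA19 from the shared sites and put YUC8 and MYC2 outside the lowest 10%. PIL1, a transcription factor of shade avoidance, at -0.22, and PIF4, at 0.27, did not belong to the set. MYC2, the main transcription factor of jasmonate response, overlaps AT1G32630 at its site and had a difference of -0.29. It left the lowest 10% without blue light replicate 1, blue light replicate 3 or red light replicate 3. JAZ5, a repressor of jasmonate response named after its value was seen, had 807.2, 818.8 and 822.1 tags in blue light, against 918.5, 656.9 and 630.1 in red light, and -0.36.

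Over the 12 lists, 13 of the 85 genes with a shared site had a red-leaning one (15.3%), beside 530 of the 5324 protein-coding genes with a shared site (9.95%). No gene of the lists for light-harvesting antenna and Rubisco, hormones, cold and drought, nitrate, or housekeeping was among them, with 3, 5, 3, 0 and 4 genes with a shared site. The list medians were -0.01 for antenna and Rubisco, -0.06 for hormones, 0.11 for cold and drought and -0.01 for housekeeping. The red-leaning share of these short lists rests on few genes, and a site can count for more than 1 gene. The listed genes RUP1 and TT7, whose red-leaning sites lie beyond the window for list genes, are not counted. Of the 13, HY5, SPA1, FC1, SIG5, MYB12, GI, IAA29 and MYC2 had sites in the highest 10% of shared sites by mean tags. There 21.9% of sites were red-leaning, and the other listed ones lay lower. The shares of 15.3% and 9.95% were not matched for height, and earlier results were known when the lists were chosen. No enrichment is read from them.

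**Figure D2:**
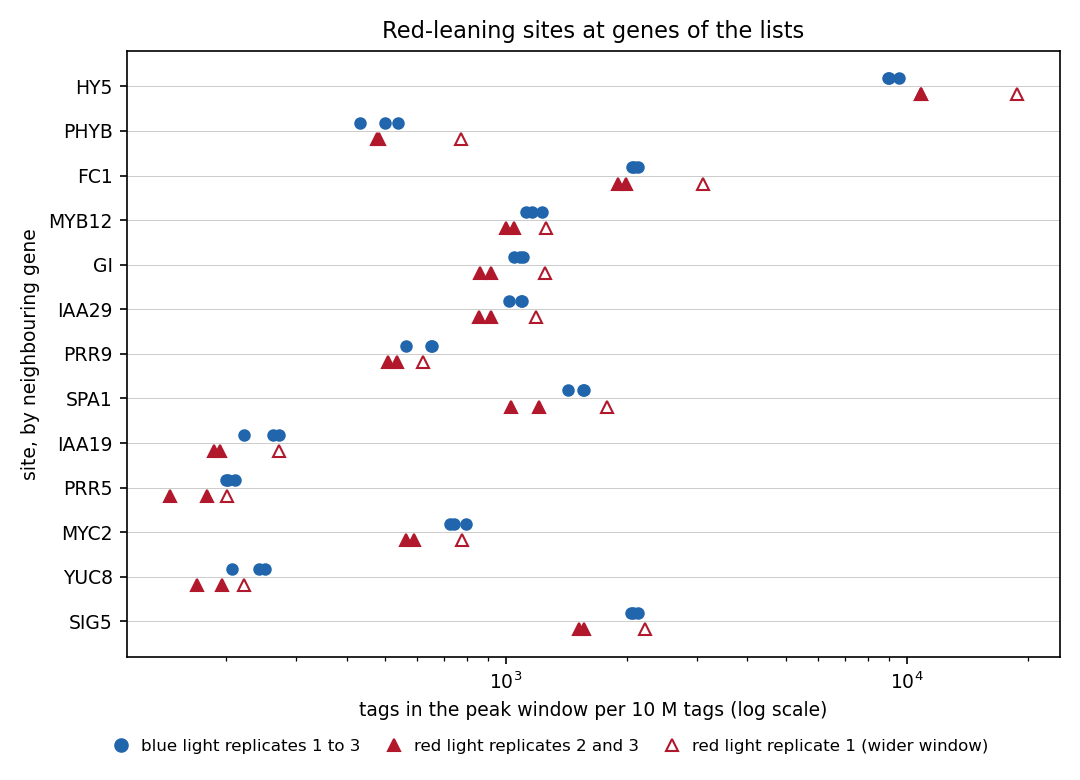
Tags in the peak window per 10 M tags (log scale) at the red-leaning sites of the listed genes, one row per site. Circles are the 3 blue light libraries, filled triangles red light replicates 2 and 3, and open triangles red light replicate 1. At GI the filled triangles, 862.3 and 916.2, lie left of all circles, and at HY5 they lie right of them.

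The tallest red-leaning sites were those of HY5, EDD1, AT1G01335, AT2G46420, FC1, AT5G02970, AT3G62695, AT1G19500, SIG5 and DAW1. At EDD1, 2879.5, 2695.8 and 2735.2 tags per 10 M in blue light stood against 3758.8, 2099.7 and 2110.8 in red light. It was place 3 in both lights, with a difference of -0.41. AT2G46420 had 2430.1, 2322.9 and 2150.9 tags in blue light, against 2993.5, 1753.1 and 1709.5 in red light, and was place 8 and place 6. At both sites, red light replicates 2 and 3 lay below every blue light value before centring, and both left the lowest 10% when the lowess trend over height was removed, at -0.096 and -0.11. AT3G62695 left it then too, at -0.062, and without red light replicate 1 or 3. AT5G02970, DAW1 and AT1G19500 had differences of -0.50, -0.49 and -0.45, which were -0.25, -0.25 and -0.21 with the trend removed. CUC1, SFR2, HSFA1E and ABF4 also had tall red-leaning sites and were picked after their values were seen, so they say nothing of developmental or stress genes as a group. Among listed cold and drought genes, CBF3 and RD29B had shared sites with differences of 0.08 and 0.11, on the side of blue light. CUC1, a NAC factor of organ boundaries, had a blue light mean of 1589.9 ± 45.7 and a red light mean of 1812.2 ± 532, and SFR2, which remodels plastid lipids in freezing, 1623.1 ± 89.1 and 1739.1 ± 480 (SD, n = 3 each). For the heat shock factor gene HSFA1E these means were 1135.7 ± 57.0 and 1181.6 ± 327, and for ABF4, a bZIP factor of abscisic acid response, 1225.3 ± 31.4 and 1238.7 ± 389. Red light replicates 2 and 3 had 1525.2 and 1484.9 tags at CUC1, 1501.8 and 1423.5 at SFR2, 1035.6 and 953.2 at HSFA1E and 1010.4 and 1018.0 at ABF4. These lay below the lowest blue light value at each of the 4 sites, so the higher red light means of tags rested on red light replicate 1.

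Red-leaning sites lay at both ends of the height range. By mean tags over the 6 libraries they spanned 78.4 to 11349 with a median of 279.7, where the other shared sites spanned 84.6 to 3012 with a median of 305.2. Divided by height into 10 bins of equal size, the lowest bin of shared sites was 21.6% red-leaning (77 sites) and the highest bin 21.9% (78 sites). In the bins between, the share was 4.21% to 11.5%, and it was smallest in the fifth. Low sites carried the larger counting error, with a median counting SE of the difference of 0.096 (log2) in the lowest bin and 0.039 in the highest. A shared site must also pass the authors' 4-fold bar over the mock in every red light library, so low sites with few red light tags are missing from the set. The median difference was -0.149 in the lowest bin, -0.0135 in the fifth and -0.0917 in the highest, with SDs over sites of 0.176, 0.182 and 0.273. How far counting error or the bar bears on the shares was not tested. Among the red-leaning sites of the highest bin, 18 had a red light mean above the blue light mean in uncentred tags.

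**Figure D3:**
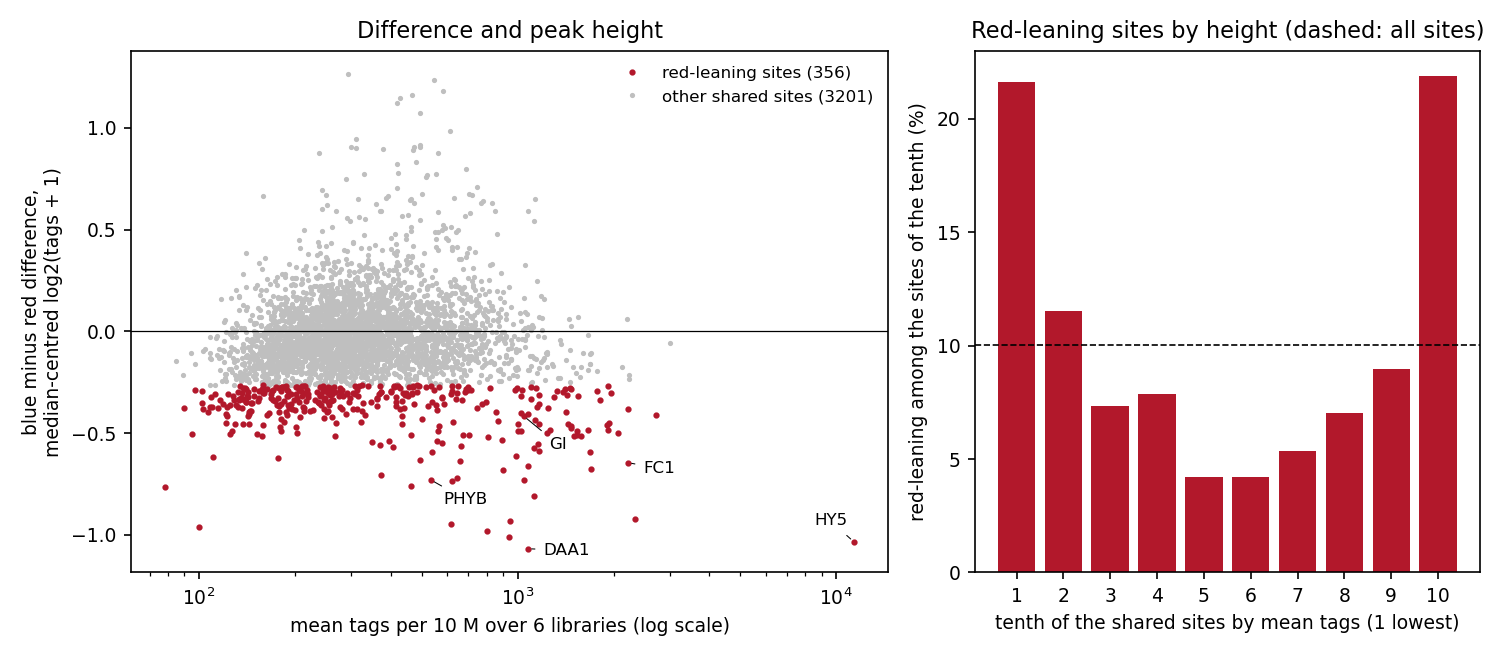
Left: the blue minus red difference of median-centred log2(tags + 1) against the mean tags per 10 M over 6 libraries (log scale), each point a shared site, with the 356 red-leaning sites in red and the other 3201 in grey. Right: the share of sites that were red-leaning in each of 10 bins of the shared sites by mean tags, with the share over all sites dashed; the lowest and highest bins stand at 21.6% and 21.9%.

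Other measures of the peaks were set beside the tags. In the authors' fold over the mock, red-leaning sites had library medians of 9.66 to 9.80 in blue light and 8.04 to 8.71 in red light, where the other shared sites had 11.4 to 11.8 in blue light and 7.32 to 7.60 in red light. The fold over the surrounding 10000 bp gave 9.80 to 10.2 in blue light and 7.72 to 9.33 in red light at red-leaning sites, and 11.4 to 11.9 in blue light and 6.82 to 8.45 in red light at the others. Both folds contain the tags that chose the sites. The mock, which does not, had median tags of 23, 23 and 23 in the windows of blue light replicates 1 to 3 and 32, 21 and 21.5 in those of red light replicates 1 to 3 at red-leaning sites, and 22, 22 and 22 and 31, 20 and 20 at the other shared sites. The authors' focus ratio, the fraction of a peak's tags that lie where tags of a point source fall, averaged 0.833 ± 0.00557 in blue light and 0.813 ± 0.0129 in red light over library medians at red-leaning sites (SD, n = 3 each). At the other shared sites it averaged 0.850 ± 0.00346 in blue light and 0.809 ± 0.0182 in red light.

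The position of the peak did not enter the choice and could be tested. Limma on the position of the peak centre, with adjustment over all 3557 shared sites, called 3 sites (0.0843%) between blue and red light at an adjusted p under 0.05, and 0 of them were red-leaning. At an unadjusted p under 0.05 there were 250 sites, of which 23 were red-leaning, and the lowest adjusted p of a red-leaning site was 0.406. The called sites lay at CPUORF47, AT5G23460 and AT3G26950. The median absolute shift between the lights was 9.33 bp at red-leaning sites and 10.0 bp over all shared sites, and 21.3% of the red-leaning sites and 22.9% of all shared sites had shifts of 20 bp or more. In data simulated for these 3557 sites, the test recovered 32% of centres moved by 60 bp and 0% of those moved by 20 bp, so smaller shifts were not detectable with these libraries. Without red light replicate 1, which had the longer fragment length, the test called 4 of 4633 shared sites, 0 of them red-leaning. How far the fragment length bears on the peak centres was not tested.

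In their place along the genome the red-leaning sites were close to the other shared sites in every count made. A protein-coding gene held 41.0% of them (146 sites), against 41.7% of the others. The centre lay from 1500 bp outside to 500 bp inside a gene end at 88.5% (315 sites), against 90.0%. The remaining 11.5% (41 sites) had no gene end in that window, against 9.97% of the others. Another joined site stood within 1500 bp of 7.58% of them (27 sites), against 6.87% of the others. By chromosome, the share of shared sites that were red-leaning was 10.1%, 9.73%, 10.5%, 8.72% and 10.6% on chromosomes 1 to 5. Of the 3552 neighbouring pairs of shared sites, 37 (1.04%) had a red-leaning site on both sides, MYB12 and UNE5 among them. Red-leaning sites are 10% of the shared sites, and no clustering is read from this count.

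The choice was also made by the tags of 2 blue light and 2 red light libraries, and the difference was read in the remaining pair. The candidates were still the 3557 sites called in all 6 libraries, so the held-out pair took part through its peak calls, though not through its tags. Over the 9 possible pairs, the median difference of the chosen sites in the held-out pair was -0.31 to -0.25, against -0.37 to -0.35 in the libraries that chose them. Of the chosen sites, 85.4% to 92.7% had a difference below 0 in the held-out pair, where 55.5% to 59.9% of all shared sites did. Between 266 and 289 of the 356 sites chosen from 4 libraries belonged to the set chosen from 6. The pairs that held out red light replicate 1 gave medians of -0.29 to -0.27, inside the range of the others. The 9 pairs share libraries and are not independent of each other. All shared sites were not matched to the chosen ones in height. Their median difference was -0.15 in the lowest height bin and -0.09 in the highest, so this comparison does not hold height apart.

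**Figure D4:**
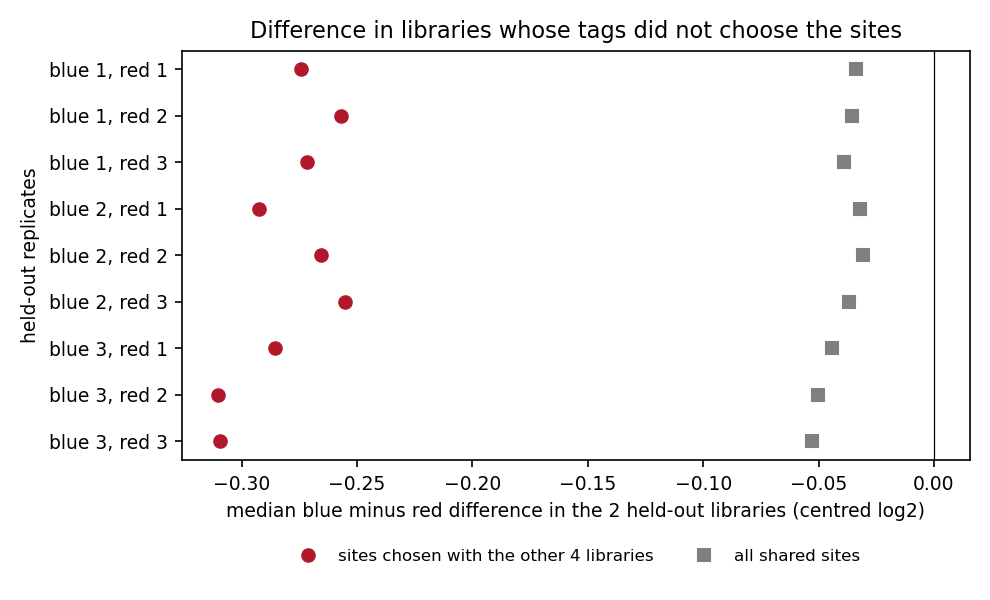
Median blue minus red difference (centred log2) in the 2 held-out libraries, one row per held-out pair of replicates. Circles are the 356 sites chosen with the other 4 libraries, and squares are all shared sites. Circles lie between -0.31 and -0.25 in all 9 rows, left of every square.

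Since red light replicate 1 was counted in wider windows, the differences were also taken without it. The median difference of the red-leaning sites was then -0.33, and all 356 stayed below 0. Leaving that library out raised the number of shared sites to 4633, and 261 of the red-leaning sites were in the lowest 10% of these, while 288 were in the lowest 10% of the original 3557. HY5 had a difference of -0.93 without it, DAA1 -0.95, DRP5A -0.89 and FC1 -0.58. Red light replicate 1 had the highest of the centred red light values at 156 of the 356 red-leaning sites. The same count over all shared sites is not given here, so this number marks no trait of the set.

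**Figure D5:**
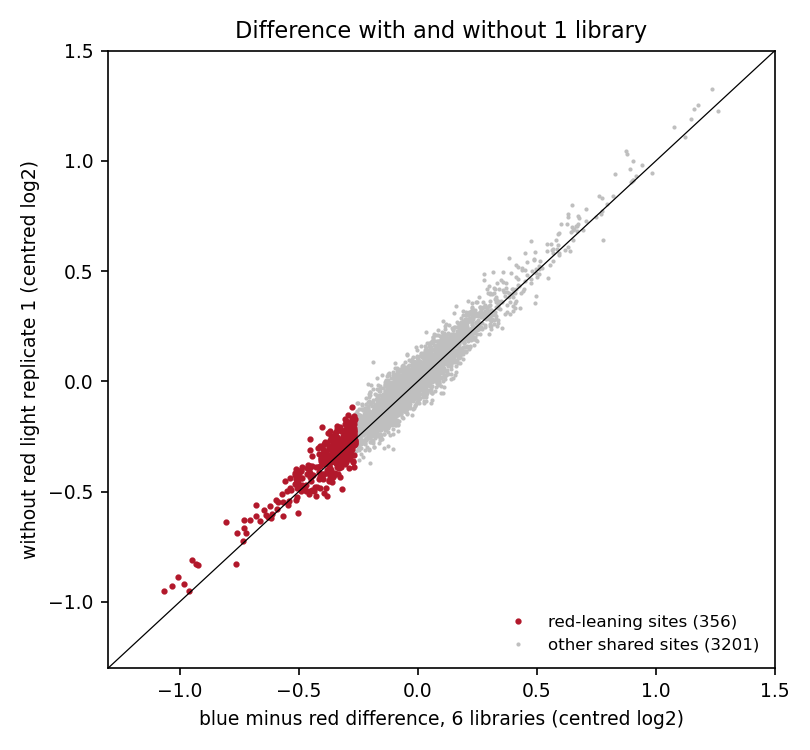
Blue minus red difference (centred log2) from 6 libraries on the horizontal axis and without red light replicate 1 on the vertical axis, each point a shared site, with the 356 red-leaning sites in red, the other 3201 in grey, and the line of equal values. All red points lie below 0 on both axes, and HY5 is at -1.03 and -0.93.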

How the data were processed

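Of the 7 samples, 3 blue light and 3 red light libraries have peak lists, and the mock enters only through their columns. Per the file headers, HOMER findPeaks was run by the authors on every library separately, with the mock as control; peaks had to exceed both the mock and the surrounding 10000 bp 4-fold, at p of at most 0.0001 and a false discovery rate of 0.001. The submitters' processing notes give HOMER 4.9 and TAIR10. The aligner was not given in these sources. The peak signal counts tags in the window, which the authors scaled to a library of 10 M tags, per the file headers. The mock signal is deposited as tags in the same window. The focus ratio is deposited as a fraction. Both folds, over mock and over surroundings, are ratios computed by the authors. The deposited p-values and scores were not used.

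Peaks of the 6 lists sharing at least 1 bp were joined, and a pseudocount of 1 was added before log2. Analyses used Python 3.11.15, pandas 2.3.3, numpy 2.4.6, statsmodels 0.14.6 (lowess), matplotlib 3.10.9, R 4.3.3 and limma 3.58.1 (lmFit and eBayes, Benjamini-Hochberg adjustment), which was tested on simulated data. Gene names come from the RefSeq table of TAIR10.1, used for names and neighbours alone; it gives no strand, so either gene end was used. No genome sequence was used, so no sequences or motifs are given. Positions are those of the lists.

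The sites and the 12 gene lists were chosen with earlier results of these data known. Named are the 15 sites with the lowest differences (1 of them is not reported here), the 10 tallest, every red-leaning site at a listed gene, the 3 sites on each side of the limit, the first 5 with all uncentred red light values above the blue light ones, and any with a called shift; other red-leaning sites, and listed genes outside the set given for contrast, were named after their values were seen. Alternatives changed the pseudocount, centring, peak filter, height filter, joining and libraries, or added the replicate number.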

Additional observations from a re-analysis of the deposited data

How the results depend on the processing

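A constant per library moves the difference of every site by the same amount, so the choice of sites could not change with it. All 356 therefore stayed without centring, with centring on the highest 25% of shared sites, or on a trimmed mean of log ratios (chosen after seeing the data). That is no check of the choice. The median difference was 0.19 without centring, where its sign turned, -0.31 with the highest 25%, -0.30 with the trimmed mean and -0.28 with a lowess trend over height removed, which kept 279 sites. Without centring, 22 named sites also turned towards blue light: AT5G02970 at 0.029, DAW1 at 0.041, AT1G19500 at 0.075, MYB12 at 0.091, GI at 0.11, EDD1 at 0.12, IAA29 at 0.13, AT2G46420 at 0.15, PRR9 at 0.17, SPA1 at 0.21, AT3G62695 at 0.22, IAA19 and PRR5 at 0.23, MYC2 at 0.24, SIG5, YUC8, ERD5, AT2G19790, CFIM-25, ELF8, AT5G07940 and ICK1 at 0.26.

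Leaving out 1 library kept 261 to 312 sites, with medians of -0.35 to -0.33. At least 8-fold over the mock left 155 of the 356 among 1183 shared sites, and 118 in the lowest 10% of these. In held-out pairs the median ranged from -0.31 to -0.25. Shift calls numbered 3; they were 1 with the replicate number as a block, 1 with peaks joined by centre, and 3 to 6 with 1 library left out (5 without blue light replicate 1 and 6 without red light replicate 3), and 0 red-leaning sites were called in any of these limma fits. Same-numbered libraries correlated at -0.037, -0.087 and 0.045 in their deviations, and differently numbered ones at -0.087 to 0.12. These values cannot show whether samples were paired, and the main limma fit took them as unpaired. Where a value changed, the cause was not tested. TMM factors on whole tags were not run, because the lists hold scaled tags. Counting error limits the low sites.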
